A study of Mus musculus with 4 samples.

Results

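Mgp, Serpine2, Timp1, Timp2 and Timp3 were examined as a set of 5 genes for secreted proteins among 32285 mouse genes, in single cells of the hyaloid vessels of mice at P6. They were chosen on the difference between pericytes and endothelial cells in these same data, so their values by class are a description and carry no test. Of the 5 genes, 2 (Mgp and Serpine2) passed the filter on low counts of the class comparison, and Timp1, Timp2 and Timp3 did not. Hyaloid vessels are the transient vessels of the vitreous body, which regress as the retina gains its own blood supply. The vitreous bodies of 7 Gpr124 fl/fl pups were pooled into 1 cell suspension and those of 9 Gpr124 dEC/dEC littermates into another. Both genotypes carried the floxed Gpr124 alleles and received tamoxifen from P1 to P4. The Gpr124 dEC/dEC pups also carried VECad-Cre-ERT2, a Cre recombinase driven by the VE-cadherin promoter in endothelial cells, and the controls carried no Cre. From each suspension, cells were sorted singly into the wells of 1 plate through a CD31 gate (endothelial cells) and 1 plate through a PDGFRB gate (pericytes), and an unstated set of wells of the Gpr124 dEC/dEC PDGFRB-gate plate was filled through the CD31 gate.

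In SORT-seq the transcripts of each well are tagged near their 3′ end with a well barcode and a unique molecular identifier (UMI), so that a UMI stands for a transcript molecule and needs no scaling by gene length. The 4 plates held 51972 to 174645 UMIs of mouse genes. Wells with 1000 to 8000 UMIs after scaling of the plates and a mitochondrial share under 10% were classed by 2 markers. The rule gave 11 endothelial cells (Cldn5 detected, Pdgfrb not; 5 Gpr124 fl/fl and 6 Gpr124 dEC/dEC) and 21 pericytes (Pdgfrb detected, Cldn5 not; 9 and 12), with medians of 3020 and 3750 UMIs per cell. A list of 15 endothelial markers took 133 UMIs per 10000 in the endothelial cells and 9.82 in the pericytes, and a list of 15 pericyte markers took 15.8 and 199. These lists include the 2 markers of the rule, so that part of the contrast was fixed by it. Cldn5 held 68 of the 413 endothelial-list UMIs in endothelial cells, and Pdgfrb 135 of the 1602 pericyte-list UMIs in pericytes. Of 10 fibroblast markers, 4 had UMIs in the pericytes, nearly all from Col1a2 (89 UMIs) and Col3a1 (51 UMIs), and Pdgfra, Dcn, Lum and Dpt were at 0. Of 7 smooth muscle markers, 6 had UMIs in the pericytes, at 20.1 per 10000 against 3.86 in endothelial cells. Acta2 had 102 pericyte UMIs, Tagln 29, Myh11 6 and Cnn1 0. The rule did not use these markers, so smooth muscle cells were not told apart from pericytes. Well barcodes were reused between plates, and for 10 of the 32 cells a well of another plate with their barcode also reached 1000 UMIs. Adgra2, the gene that encodes GPR124, had 3 UMIs in the Gpr124 fl/fl and 0 in the Gpr124 dEC/dEC endothelial cells, which allows up to 1.89 UMIs per 10000. Which part of the gene Cre removes is not given in the sources used here, so a count near the 3′ end may not check the deletion. The pericytes, which VECad-Cre-ERT2 should not recombine, had 7 and 17 Adgra2 UMIs.

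Matrix Gla protein, encoded by Mgp, is a small secreted protein whose glutamate residues are carboxylated by a vitamin K-dependent enzyme. It is known for keeping arteries and cartilage free of calcification and for binding bone morphogenetic proteins (BMPs). Serpine2 encodes protease nexin-1, a serpin that traps thrombin, urokinase and plasmin at the cell surface. The TIMPs are tissue inhibitors of metalloproteinases: TIMP1 and TIMP2 are soluble, TIMP2 also takes part in the activation of pro-MMP2 by MMP14, and TIMP3 binds to the extracellular matrix and also inhibits ADAM and ADAMTS proteases. In vessels, such inhibitors limit the breakdown of the basement membrane shared by endothelial cells and pericytes.

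By the GENCODE annotation of GRCm38, Mgp (ENSMUSG00000030218) lies at chr6:136872435-136875823 on the minus strand and is the shortest of the 5 genes, with 3.39 kb. Serpine2 (ENSMUSG00000026249) lies at chr1:79794197-79861180 on the minus strand and Timp2 (ENSMUSG00000017466) at chr11:118301069-118355740 on the minus strand. Timp1 (ENSMUSG00000001131) lies at chrX:20870166-20874735 on the plus strand inside Syn1, and Timp3 (ENSMUSG00000020044) at chr10:86300372-86349506 on the plus strand inside Syn3, both hosts being on the opposite strand. Syn1 had 0 UMIs and Syn3 had 2 in the retained cells, and Cep295nl, which overlaps Timp2 on the same strand, had 0. RefSeq promoter windows of GRCm38.p6, from 250 bases before to 50 bases after the annotated start, were found for 4 of the 5 members. The windows of Serpine2 (chr1:79858616-79858915, minus strand), Timp2 (chr11:118355362-118355661, minus strand) and Timp3 (chr10:86300162-86300461, plus strand) are shown 5′ to 3′, since Serpine2 was the member nearest to Mgp in level and Timp2 and Timp3 were the members whose genotype ratios differed most from 1. Capitals mark the letters GGGCGG or their reverse complement, the core of a GC box bound by Sp1.
Serpine2: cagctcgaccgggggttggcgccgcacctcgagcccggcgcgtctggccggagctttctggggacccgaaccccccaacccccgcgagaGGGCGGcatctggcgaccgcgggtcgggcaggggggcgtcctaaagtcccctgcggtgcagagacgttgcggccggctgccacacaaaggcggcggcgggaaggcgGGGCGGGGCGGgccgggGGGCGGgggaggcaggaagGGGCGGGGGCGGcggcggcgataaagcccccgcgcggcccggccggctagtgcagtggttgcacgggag
Timp2: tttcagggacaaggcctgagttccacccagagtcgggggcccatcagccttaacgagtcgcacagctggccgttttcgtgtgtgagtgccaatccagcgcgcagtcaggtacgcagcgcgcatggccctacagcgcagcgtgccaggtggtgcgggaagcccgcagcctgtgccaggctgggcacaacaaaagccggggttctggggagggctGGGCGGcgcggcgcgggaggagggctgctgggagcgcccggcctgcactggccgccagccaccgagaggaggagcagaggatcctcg
Timp3: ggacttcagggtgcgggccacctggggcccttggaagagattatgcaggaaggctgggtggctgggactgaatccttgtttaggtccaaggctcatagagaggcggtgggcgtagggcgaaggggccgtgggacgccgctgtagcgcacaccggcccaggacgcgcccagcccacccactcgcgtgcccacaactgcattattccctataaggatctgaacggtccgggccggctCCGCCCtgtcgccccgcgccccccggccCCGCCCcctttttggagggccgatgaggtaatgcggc
The GC box letters occurred 6 times in the Serpine2 window, with overlapping matches counted, 1 time in that of Timp2 and 2 times in that of Timp3, and 1 time in the window of Timp1. Of 32851 promoter windows of this length, 35.7% held them on either strand. The AP-1 letters TGANTCA were in none of the 4 windows of the members on either strand, against 7.81% of all windows. A TATA box spelled as TATAAA was absent from the 4 windows on both strands too, where 13.6% of all windows held it. The binding letters of TCF and LEF factors, ATCAAAG, were in none of the 4 on either strand and in 3.73% of all windows. The G and C content was 77.7% in the Serpine2 window, 68.7% in that of Timp2, 67.0% in that of Timp3 and 55.0% in that of Timp1, against a median of 52.7% over all windows.

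Mgp was among the most abundant transcripts of the hyaloid pericytes. It held 392 UMIs in the 21 pericytes, or 48.7 UMIs per 10000 (95% Poisson interval 44.0 to 53.8), and ranked 8th of 9617 detected genes by UMIs, or 5th with mitochondrial genes left out. Every pericyte had at least 3 Mgp UMIs. In the 12 Gpr124 dEC/dEC pericytes the level ran from 26.7 to 80.6 per 10000 with a median of 46.9. In the 6 Gpr124 fl/fl pericytes of the CD31-gate plate it ran from 22.9 to 83.8 with a median of 58.8. The 3 Gpr124 fl/fl pericytes of the PDGFRB-gate plate had 31.7, 46.3 and 53.2 per 10000. The ranges of the 3 plates overlapped throughout.

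In the endothelial cells Mgp was at or near 0. The 11 cells held 7 Mgp UMIs in all, or 2.25 per 10000 (0.906 to 4.65). The 4 cells of the Gpr124 dEC/dEC CD31-gate plate had 0, 0, 0 and 2 UMIs and the 2 cells of the PDGFRB-gate plate 0 and 1. The Gpr124 fl/fl cells had 0 and 1 UMIs in the CD31-gate plate and 1, 0 and 2 in the PDGFRB-gate plate. The highest endothelial cell, with 11.2 per 10000, lay below the lowest pericyte, and the classes did not overlap. Members were chosen on this contrast, and the share of all genes whose single cells separate in this way was not counted. The pooled level was 21.6-fold higher in pericytes (95% conditional binomial interval 10.4 to 54.1). Within the plates that held both classes the ratio was 37.7 (6.62 to 1501) for Gpr124 fl/fl after the CD31 gate, 13.3 (4.36 to 66.5) for Gpr124 fl/fl after the PDGFRB gate and 45.2 (8.04 to 1795) for Gpr124 dEC/dEC after the PDGFRB gate, the first and the last resting on 1 endothelial UMI each. Without the 10 cells of shared barcodes the pooled ratio was 31.4.

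Serpine2 had nearly the same distribution as Mgp between the classes. Its 343 UMIs in pericytes gave 42.6 per 10000 (38.2 to 47.4) and rank 13 of 9617 genes. Every pericyte had at least 4 UMIs. The level ran from 18.9 to 88.4 per 10000 (median 49.97) in the Gpr124 dEC/dEC pericytes and from 11.2 to 63.0 (median 46.3) in the Gpr124 fl/fl pericytes of the CD31-gate plate. It was 34.4, 57.5 and 30.2 in the 3 Gpr124 fl/fl pericytes of the PDGFRB-gate plate. As with Mgp, no plate stood apart from the others.

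The endothelial cells held 6 Serpine2 UMIs, or 1.93 per 10000 (0.709 to 4.21). The counts were 0, 0, 0 and 1 in the Gpr124 dEC/dEC CD31-gate plate, 1 and 2 in the Gpr124 dEC/dEC PDGFRB-gate plate, 1 and 1 in the Gpr124 fl/fl CD31-gate plate and 0, 0 and 0 in that of Gpr124 fl/fl sorted for PDGFRB. The highest endothelial cell had 5.602 per 10000 against 11.2 in the lowest pericyte, again without overlap. The pooled level was 22.1-fold higher in pericytes (10.03 to 60.5), and 41.0-fold higher without the cells of shared barcodes. Levels of Mgp and Serpine2 in the pooled pericytes lay next to each other, with Poisson intervals that overlapped.

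**Figure D1:**
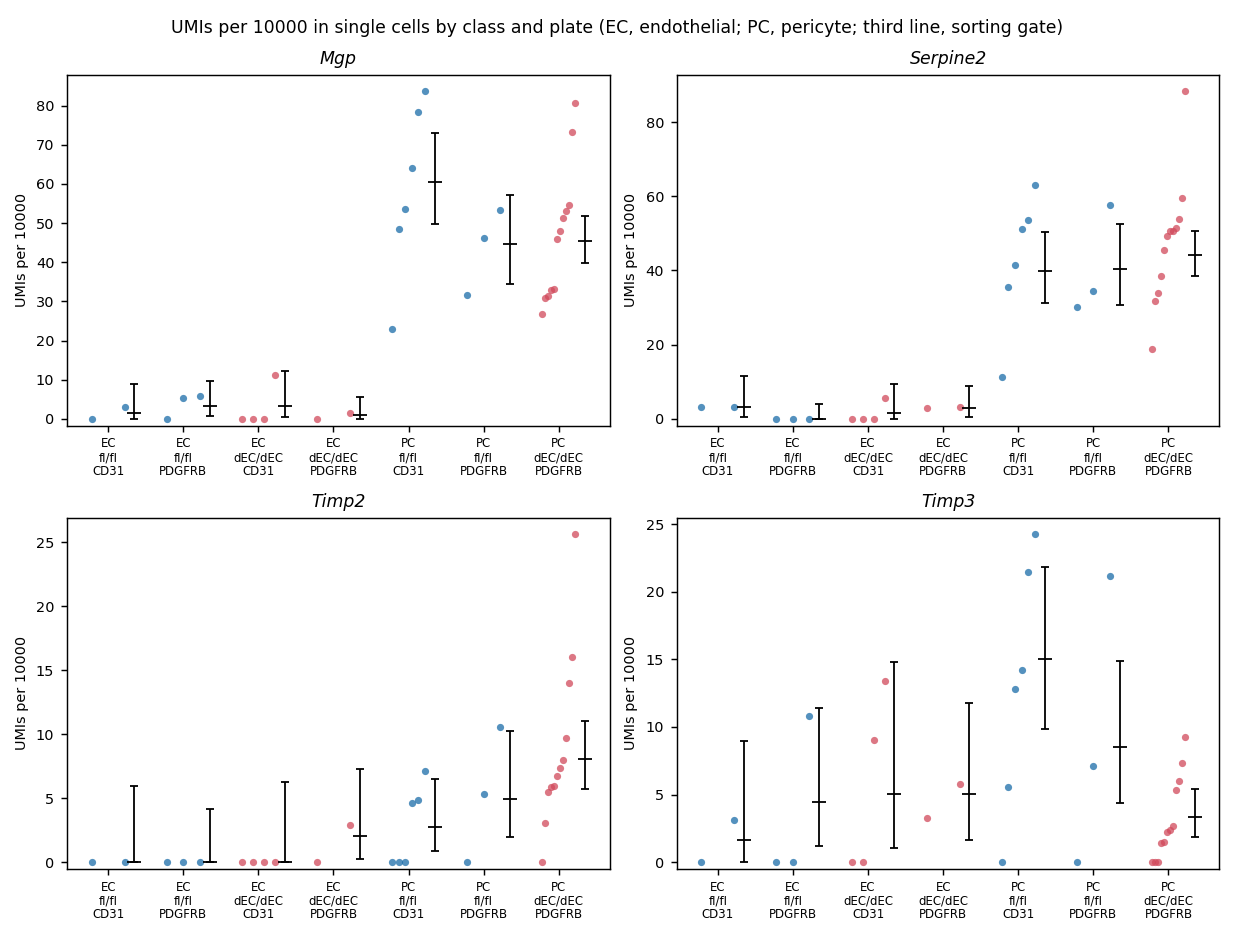
Mgp, Serpine2, Timp2 and Timp3 in UMIs per 10000 (vertical axes) in each of the 32 retained cells (points) by class and plate, blue for Gpr124 fl/fl and red for Gpr124 dEC/dEC, with the pooled level of each plate and its 95% Poisson interval in black. For Mgp and Serpine2 all pericytes lie above all endothelial cells, the highest endothelial cells being at 11.2 and 5.602. Timp2 and Timp3 are at 0 in some cells of both classes.

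Timp2 was less abundant in pericytes than Mgp or Serpine2, with 51 UMIs or 6.34 per 10000 (4.72 to 8.33), and 16 of 21 pericytes had a UMI (76.2%, Clopper-Pearson interval 52.8 to 91.8%). Among endothelial cells only the largest one, with 6901 UMIs in all, held Timp2 UMIs, 2 in number. The other 10 had 0. The pooled endothelial level was 0.644 per 10000 (0.0780 to 2.33), and the pericyte level was 9.84-fold higher (2.59 to 83.4). The endothelial cells were shallower, so shares of cells were also compared at an equal draw of 1000 UMIs per cell. The expected share with a Timp2 UMI was then 45.7% in pericytes and 2.44% in endothelial cells, against 76.2% and 9.09% at full depth.

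Timp3 was the member with the smallest difference between the classes. It had 55 UMIs in pericytes, or 6.84 per 10000 (5.15 to 8.90), and 13 in endothelial cells, or 4.19 (2.23 to 7.16). The ratio of 1.63 had an interval of 0.881 to 3.26 that included equal levels, whereas without the Gpr124 dEC/dEC PDGFRB-gate plate it was 3.20 (1.48 to 7.94). A UMI was found in 16 of 21 pericytes and 6 of 11 endothelial cells, and at an equal draw of 1000 UMIs the expected shares were 41.5% and 32.9%. The endothelial cells had 1, 2, 0 and 0 UMIs in the Gpr124 dEC/dEC CD31-gate plate, 1 and 4 in the Gpr124 dEC/dEC PDGFRB-gate plate, 0 and 1 in the Gpr124 fl/fl CD31-gate plate and 0, 0 and 4 in that of Gpr124 fl/fl sorted for PDGFRB. The single cells of the classes overlapped over most of their range. The ratio between classes was not the same in the genotypes: the Gpr124 fl/fl cells gave 3.69 (1.45 to 12.0) and the Gpr124 dEC/dEC cells 0.656 (0.265 to 1.77), a difference that could not be tested with 1 suspension each.

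Timp1 was barely detected. It had 3 UMIs in 3 different pericytes, 1 in the Gpr124 fl/fl CD31-gate plate and 2 in the Gpr124 dEC/dEC PDGFRB-gate plate, or 0.373 per 10000 (0.0769 to 1.09). The endothelial cells had 0 of 31048 UMIs, and no fold was formed. Timp4, the remaining TIMP gene, had 0 UMIs in both classes. Reck, which encodes a membrane-anchored metalloprotease inhibitor, had 5 UMIs in pericytes and 1 in endothelial cells. In order of level in pericytes the members thus ran Mgp, Serpine2, Timp3, Timp2 and Timp1, where neither Mgp and Serpine2 nor Timp3 and Timp2 were apart beyond their Poisson intervals. In endothelial cells the order was Timp3, Mgp, Serpine2, Timp2 and Timp1, and the intervals of Timp3, Mgp, Serpine2 and Timp2 overlapped from each gene to the next.

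The wells outside the retained cells also held UMIs of the members. The 1478 wells with fewer than 1000 UMIs held 331 Mgp and 246 Serpine2 UMIs, or 14.7 and 10.9 per 10000. Which of these wells held an intact cell, a damaged one or none is not known. These levels were 6.51-fold (3.12 to 16.3) and 5.64-fold (2.56 to 15.5) above those of the endothelial cells, and 3.32-fold and 3.91-fold below those of the pericytes. In the endothelial cells Mgp and Serpine2 were at 4.63% and 4.53% of the pericyte level. Rgs5, a pericyte marker that encodes a regulator of G protein signalling, was at 7.53% of its pericyte level in the endothelial cells and at 51.4% in the low wells. The part of free RNA in the endothelial counts of Mgp and Serpine2 was not tested. Among the low wells the level of Mgp was 9.86, 19.4, 16.9 and 10.8 per 10000 in the Gpr124 dEC/dEC CD31-gate, Gpr124 dEC/dEC PDGFRB-gate, Gpr124 fl/fl CD31-gate and Gpr124 fl/fl PDGFRB-gate plates, and that of Rgs5 followed the same order of plates with 31.0, 63.2, 50.2 and 34.9.

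Timp3 differed from Mgp and Serpine2 in this respect. In wells under 1000 UMIs it had 62 UMIs or 2.75 per 10000 (2.11 to 3.52), below the endothelial level of 4.19, with a ratio of low wells to endothelial cells of 0.656 and an interval of 0.357 to 1.30 that included equal levels. Timp2 had 26 UMIs there, or 1.15 per 10000 (0.754 to 1.69), and Timp1 had 0 of 225601. The pericyte levels of Timp2 and Timp3 were 5.50-fold (3.37 to 9.19) and 2.49-fold (1.70 to 3.64) above those of the low wells.

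The 11 wells over 8000 UMIs separated in the same way as the retained cells. The 8 with Pdgfrb UMIs held 21 to 45 Mgp UMIs each, at 27.1 to 55.2 per 10000, and 11 to 34 Serpine2 UMIs each. The 3 with neither Pdgfrb nor Cldn5 UMIs held 3, 1 and 1 Mgp and 5, 2 and 1 Serpine2 UMIs. The 3 wells that had UMIs of both markers, with 1 Cldn5 UMI each, were at 58.3, 55.2 and 49.2 Mgp UMIs per 10000, inside the range of the pericytes. Timp3 did not follow this division: a well without Pdgfrb from the Gpr124 fl/fl PDGFRB-gate plate held 10 Timp3 UMIs, or 10.8 per 10000, and the other 2 held 1 each.

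**Figure D2:**
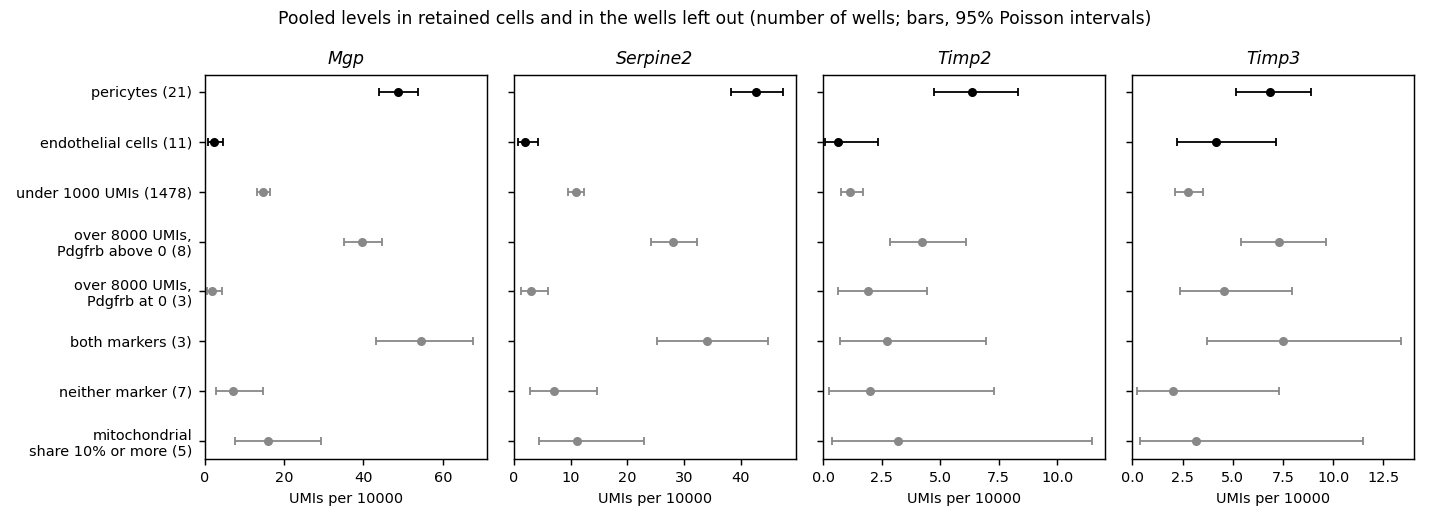
Pooled UMIs per 10000 of 4 members (horizontal axes, 95% Poisson intervals) in pericytes and endothelial cells (black) and in the wells left out (grey), with the number of wells in brackets. Mgp and Serpine2 are higher in pericytes and lower in endothelial cells than in wells under 1000 UMIs, with Mgp at 48.7, 2.25 and 14.7. The Timp3 intervals overlap between most kinds of wells.

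Levels differed among single pericytes by more than counting error. The variance of the counts over that expected from counting alone was 2.17 for Mgp, 1.99 for Serpine2, 1.59 for Timp2 and 3.10 for Timp3, where 1 would be counting error only. Within the genotypes it was 1.31 in the Gpr124 fl/fl and 1.42 in the Gpr124 dEC/dEC pericytes for Timp2, whose value over all cells includes the difference between genotypes and plates. For Timp3 it was 2.43 in the Gpr124 fl/fl and 1.01 in the Gpr124 dEC/dEC pericytes, and 1 Gpr124 fl/fl cell held 14 of the 39 Timp3 UMIs of its group. Intervals that cover counting error only are therefore narrower than the spread between cells. Across the 21 pericytes the levels of Mgp and Serpine2, as log2 of UMIs per 10000 plus 1, ran against each other with a Pearson r of -0.42. The pericyte with the most Mgp, 83.8 per 10000, had the least Serpine2, 11.2 per 10000, but the next in Mgp, at 80.6, had 45.6 of Serpine2. These points share 3 plates and 2 suspensions and are shares of a fixed total, and cells are not replicates.

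**Figure D3:**
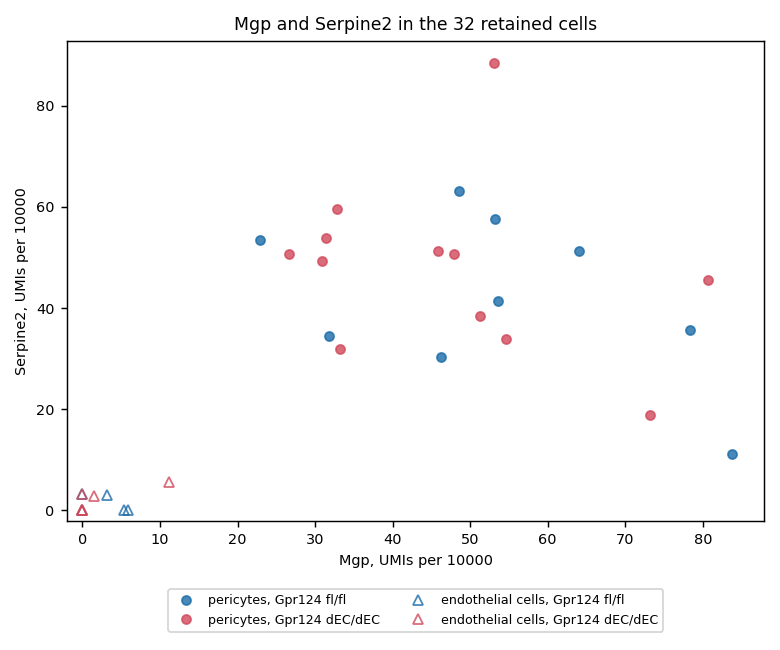
Serpine2 (vertical axis) against Mgp (horizontal axis), both in UMIs per 10000, in the 21 pericytes (filled circles) and 11 endothelial cells (open triangles), blue for Gpr124 fl/fl and red for Gpr124 dEC/dEC. The endothelial cells sit at or below 11.2 for Mgp and 5.602 for Serpine2, and the pericyte with the most Mgp has the least Serpine2 (r = -0.42 over the 21 pericytes).

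Of 423 genes with at least 30 UMIs in pericytes, those with the pattern most like Mgp over the 21 cells were Gucy1a1, a subunit of the nitric oxide receptor (r = 0.59), Tubb5, a beta tubulin (r = 0.56), and Ptn, a secreted growth factor (r = 0.51). For Serpine2 they were Zbtb20 (r = 0.62), Ednra, an endothelin receptor (r = 0.57), and Tns1, a focal adhesion protein (r = 0.54). For Timp2 they were Reep3 (r = 0.56), Ywhae (r = 0.56) and Cst3, an inhibitor of cysteine proteases (r = 0.53). For Timp3 they were Selenof (r = 0.63), Rpl24 (r = 0.59) and Son (r = 0.56). Each coefficient was picked as 1 of the 3 highest over 21 cells that share plates and suspensions, and is given as a description.

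Between the genotypes the pooled levels of Mgp and Serpine2 in pericytes had ratios whose intervals included equal levels. Mgp was at 53.6 per 10000 in Gpr124 fl/fl (172 UMIs, 9 cells) and 45.5 in Gpr124 dEC/dEC (220 UMIs, 12 cells), with a ratio of Gpr124 fl/fl over Gpr124 dEC/dEC of 1.18 (0.959 to 1.44). Serpine2 was at 40.2 and 44.3, with a ratio of 0.908 (0.724 to 1.13). All 12 Gpr124 dEC/dEC pericytes came from the PDGFRB-gate plate, so over all plates genotype and gate cannot be told apart. An unstated set of wells of that plate was filled through the CD31 gate, so ratios within the PDGFRB-gate plates do not fully match the gates either. Within the PDGFRB-gate plates the ratio was 0.982 (0.730 to 1.31) for Mgp and 0.914 (0.670 to 1.23) for Serpine2. Without the PDGFRB-gate plate of Gpr124 fl/fl the Mgp ratio was 1.33, and its interval of 1.05 to 1.68 then lay above equal levels. With no upper limit on UMIs the ratio was 1.01 (0.863 to 1.18) for Mgp and 0.825 (0.688 to 0.987) for Serpine2, the latter interval then lying below equal levels.

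Timp2 and Timp3, both inhibitors of metalloproteases, stood in opposite order between the genotypes. Timp3 was at 12.1 per 10000 in the Gpr124 fl/fl pericytes (39 UMIs) and 3.31 in the Gpr124 dEC/dEC pericytes (16 UMIs), with a ratio of 3.67 (2.004 to 7.04). The Gpr124 fl/fl cells of the CD31-gate plate had 0, 2, 5, 4, 2 and 14 Timp3 UMIs and those of the PDGFRB-gate plate had 8, 0 and 4. The 12 Gpr124 dEC/dEC cells had 0 to 4 UMIs, with a median level of 2.30 per 10000 against 12.8 in Gpr124 fl/fl. The single cells overlapped, since 2 of 9 Gpr124 fl/fl and 3 of 12 Gpr124 dEC/dEC pericytes were at 0. Within the PDGFRB-gate plates the ratio was 2.57 (1.11 to 5.80), without the cell of 14 UMIs it was 2.95 (1.52 to 5.92), and without the cells of shared barcodes it was 5.95. With no upper limit on UMIs it fell to 1.70 (1.14 to 2.54), as Timp3 in the 8 wells over 8000 UMIs with Pdgfrb was at 6.12 per 10000 in Gpr124 fl/fl and 8.12 in Gpr124 dEC/dEC. The ratio in those 8 wells was 0.754, with an interval of 0.394 to 1.39 that included equal levels.

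Timp2 was at 3.74 per 10000 in the Gpr124 fl/fl (12 UMIs) and 8.07 in the Gpr124 dEC/dEC pericytes (39 UMIs), with a ratio of 0.463 (0.221 to 0.903). The Gpr124 fl/fl cells had 0, 1, 1, 0, 0 and 3 UMIs in the CD31-gate plate and 4, 0 and 3 in the PDGFRB-gate plate. The 12 Gpr124 dEC/dEC cells had 0 to 7, and 1 of them was at 0 against 4 of 9 in Gpr124 fl/fl. The ranges again overlapped. The ratio was 0.616 (0.232 to 1.39) within the PDGFRB-gate plates and 0.624 (0.279 to 1.30) without the cells of shared barcodes, and both intervals included equal levels. So did those of 0.715 (0.430 to 1.16) with no upper limit on UMIs and 0.587 (0.257 to 1.26) with a mitochondrial share under 5%. In the wells over 8000 UMIs with Pdgfrb the order was the other way, with 5.04 in Gpr124 fl/fl and 3.69 in Gpr124 dEC/dEC. Their ratio of 1.37 rested on 14 and 15 UMIs, and its interval of 0.611 to 3.03 included equal levels.

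Of the 423 genes with at least 30 UMIs in pericytes, 8.75% had an interval of the genotype ratio that excluded equal levels and 7.57% had a log2 ratio of at least 1 in size. Timp2 and Timp3 were 2 such genes by both measures among the 4 members with 30 UMIs. The Timp3 ratio was the highest of the 423 genes in the direction of Gpr124 fl/fl, and 16 genes, Timp2 among them, had a ratio as low as that of Timp2 or lower. The median log2 ratio over the 423 genes was -0.06. With 1 suspension per genotype there was no replicate check, and no p-value is given. Markers of pericytes, macrophages and erythroid cells differed between the pooled genotypes too. The list of 15 pericyte markers took 174 UMIs per 10000 in the Gpr124 fl/fl and 216 in the Gpr124 dEC/dEC pericytes. By plate it ran from 130, in a Gpr124 fl/fl plate, to 216, so the Gpr124 fl/fl plates differed from each other as well. All Gpr124 dEC/dEC pericytes came from 1 plate, so plate and genotype cannot be told apart. The 12 macrophage markers took 0 and 3.52, with 8 of the 12 detected in the Gpr124 dEC/dEC pericytes. The 10 erythroid markers took 2.80 UMIs per 10000 in the Gpr124 fl/fl and 9.93 in the Gpr124 dEC/dEC pericytes. Their part in the Timp2 and Timp3 values was not tested.

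In endothelial cells no member had 30 UMIs. Timp3 had 5 UMIs in the 5 Gpr124 fl/fl and 8 in the 6 Gpr124 dEC/dEC cells, with a ratio of 0.653 (0.168 to 2.26). Mgp had 4 and 3 UMIs, with a ratio of 1.39 (0.236 to 9.51), and Serpine2 had 2 and 4, with a ratio of 0.522 (0.0473 to 3.65). Timp2 had 0 and 2 and Timp1 had 0 and 0, under the floor of 3 UMIs, and no ratio was formed. The 10 erythroid markers took 153 UMIs per 10000 in the Gpr124 fl/fl and 4.41 in the Gpr124 dEC/dEC endothelial cells. By plate they ran from 0 to 260, and all 233 UMIs of the Gpr124 fl/fl cells were in the 3 cells of the PDGFRB-gate plate. The part of the erythroid markers in these ratios was not tested. At this depth a difference of less than several-fold was not detectable.

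**Figure D4:**
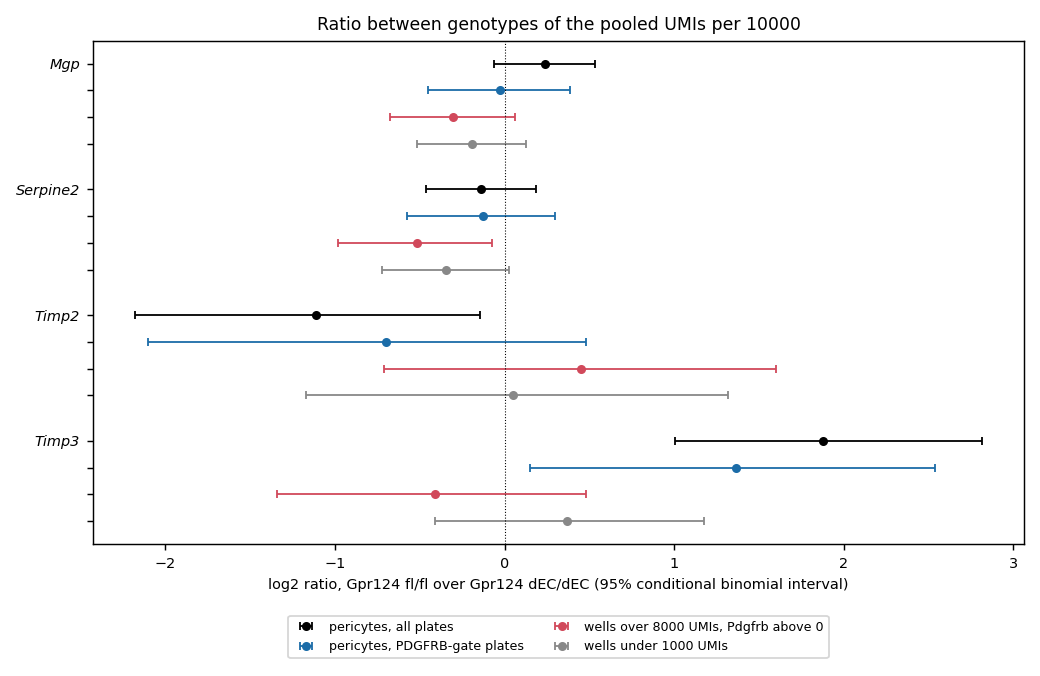
Log2 ratio of pooled UMIs per 10000, Gpr124 fl/fl over Gpr124 dEC/dEC (horizontal axis), for 4 members with 95% conditional binomial intervals, in pericytes of all plates (black), pericytes of the PDGFRB-gate plates (blue), wells over 8000 UMIs with Pdgfrb (red) and wells under 1000 UMIs (grey). Timp3 lies to the right in the pericytes (1.88 and 1.36) but not in the wells over 8000 UMIs (-0.41), Timp2 lies to the left in the pericytes (-1.11 and -0.70) and to the right in the wells over 8000 UMIs (0.45), and the pericyte values of Mgp and Serpine2 lie between -0.14 and 0.24. The Timp2 and Timp3 intervals of the wells over 8000 UMIs include equal levels.

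The substrates and partners of the members were read from 5 gene lists. In edgeR's quasi-likelihood test on the sums per class and plate, 148 genes passed the filter on low counts, of which 24.3% were higher in pericytes and 10.1% higher in endothelial cells at an adjusted p under 0.05. Of 163 listed genes 162 were in the files, and 3 of them passed the filter. All 3 were called higher in pericytes: Fstl1, F2r and Id3. The lists were chosen with earlier results of these data known, so the p-values of these 3 genes are no independent support.

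Among 27 genes of thrombin, plasminogen and their receptors, 17 had UMIs and 1 was tested. F2r encodes PAR1, the thrombin receptor, and had 118 UMIs in pericytes, with at least 1 in each of the 21 cells, and 4 in endothelial cells. It was higher in pericytes by a log2 fold change of 3.92 ± 0.60 (SE; adjusted p = 1.03e-09, edgeR). With the plate as a block, which pairs the classes, the log2 fold change of F2r was 3.53 (adjusted p = 8.94e-05, edgeR). Lrp1, a receptor that takes up serpin-protease complexes, had 71 UMIs in 18 of 21 pericytes and 1 in endothelial cells, with a pooled ratio of 27.4 (4.76 to 1097). Anxa2, a cell surface receptor for plasminogen and its activator, had 43 and 17 UMIs, with a ratio of 0.976 (0.545 to 1.83). Of the 5 genes of this list with at least 30 UMIs, 4 had a ratio whose interval lay above equal levels and 0 below, with a median log2 ratio of 3.63. Over all 617 genes with 30 UMIs the median was 0.15, with 170 above and 120 below. The 4 genes (F2r, Lrp1, Plat and Sdc2) reached 30 UMIs through the pericytes, with 4, 1, 0 and 1 UMIs in endothelial cells. Pericytes held 80460 UMIs in all and endothelial cells 31048, so the cut favoured genes high in pericytes. The list was also chosen with earlier results of these data known, so these counts are a description.

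Of 35 genes of the BMP ligands, antagonists, receptors and targets, 21 had UMIs and 2 were tested. Fstl1, a secreted follistatin-like glycoprotein, had 194 UMIs in pericytes (21 of 21 cells) and 19 in endothelial cells, with a log2 fold change of 2.41 ± 0.36 (SE; adjusted p = 6.96e-10, edgeR). With the plate as a block the log2 fold change of Fstl1 was 2.87 (adjusted p = 4.59e-05, edgeR). Id3, a transcriptional target of BMP signals, had 105 and 27 UMIs. Its log2 fold change of 1.003 ± 0.41 (SE) had an adjusted p of 0.0400 in edgeR, and with the plate as a block it was 0.92 with an adjusted p of 0.133. The call was lost in 6 of 9 alternatives, with edgeR or DESeq2 adjusted p from 0.0342 to 0.211, and the pooled ratio was 1.501 (0.975 to 2.38). Bmpr2, a type II BMP receptor, had 44 UMIs in pericytes and 19 in endothelial cells (ratio 0.894, 0.511 to 1.62). Eng, the endothelial co-receptor endoglin, had 19 and 24 (ratio 0.305, 0.158 to 0.582), and it also belongs to the list of endothelial markers. Of the 5 genes of this list with 30 UMIs, 1 had an interval above equal levels and 1 below, with a median log2 ratio of 0.59.

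No gene of the other 3 lists reached the filter. Of 36 further protease inhibitors, 14 had UMIs. Cst3, which encodes cystatin C, had 54 UMIs in pericytes and 16 in endothelial cells (ratio 1.30, 0.734 to 2.44), and Agrn, whose product agrin is a basement membrane proteoglycan with follistatin-like inhibitor domains, had 85 and 8 (ratio 4.10, 1.99 to 9.80). Spock2, a testican proteoglycan, and Ctla2a stood the other way, with 0 and 1 UMIs in pericytes and 19 each in endothelial cells. They were named after their values were seen, and in edgeR without the filter on low counts both were called higher in endothelial cells (adjusted p = 0.000938 and 0.00731). Summed over the 36 genes the level was 24.4 per 10000 in pericytes and 24.5 in endothelial cells. Of 36 MMP, ADAM and ADAMTS metalloproteases, listed as possible targets of TIMPs, 22 had UMIs. They took 16.2 per 10000 in pericytes and 11.3 in endothelial cells in all. Mmp14, a membrane-type collagenase, had 23 and 8 UMIs (ratio 1.11, 0.479 to 2.87), and Mmp11 had 18 and 1 (ratio 6.95, 1.10 to 289).

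Of 28 genes of the vitamin K cycle, Gla proteins and mineralisation found in the files, 16 had UMIs, 5.72 per 10000 in pericytes and 7.73 in endothelial cells in all. Pros1, the vitamin K-dependent protein S, had 11 and 6 UMIs (ratio 0.707, 0.240 to 2.33), and Xpr1, a phosphate exporter, had 9 and 5 (ratio 0.695, 0.209 to 2.64). The level of Mgp in pericytes was thus above the sum of these 28 genes.

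**Figure D5:**
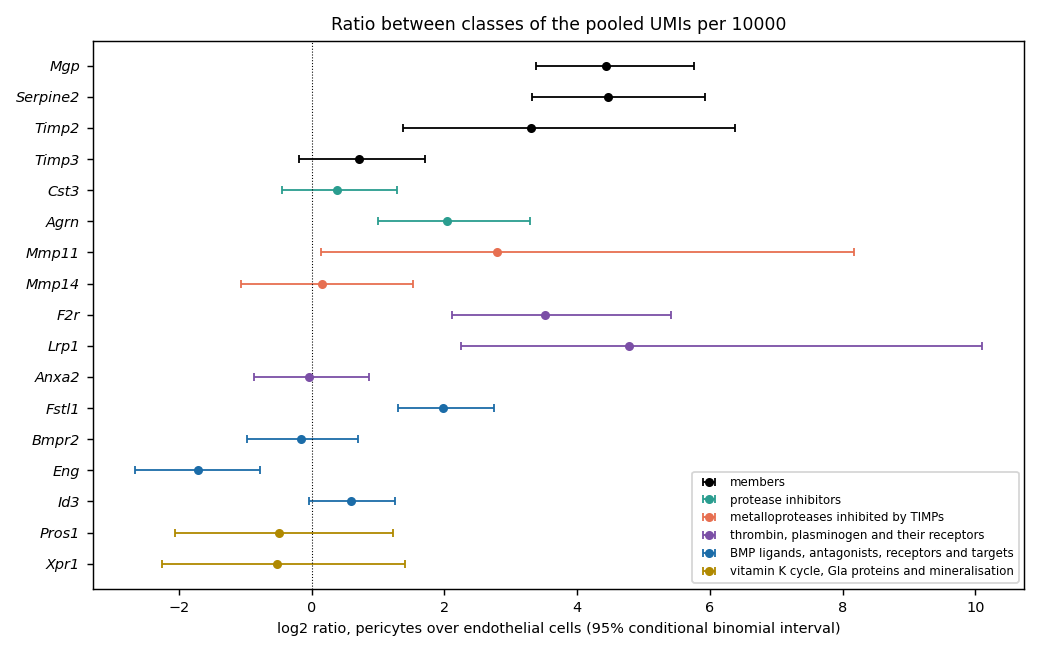
Log2 ratio of pooled UMIs per 10000, pericytes over endothelial cells (horizontal axis), with 95% conditional binomial intervals, for 4 members (black) and the named genes of 5 lists (colours). Mgp, Serpine2 and Timp2 lie between 3.30 and 4.46, F2r in the same range and Lrp1 above it at 4.78, and Timp3 (0.71) near Cst3, Mmp14 and Id3.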

How the data were processed

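The authors aligned SORT-seq reads to GRCm38 with STARsolo (version 2.7.11b, from the submitters' processing notes) and deposited the estimated counts of UMIs for each gene in each well without further scaling. Of the values above 0, 98.8% were whole. They were rounded for sums and tests and used as deposited for well totals. Spike-ins (92, 47.4 to 73.1% of a plate's UMIs) were left out, totals were multiplied by 1 to 1.93 to the highest plate median, and wells were kept and classed by the limits and markers given in the study's methods. Here that rule left the numbers of endothelial cells that the study states but other numbers of pericytes in both genotypes, and so is not the study's own set of cells. No doublet caller was run on 32 cells, and the marker rule dropped wells with both markers. Mice were pooled, so each genotype is 1 sample.

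UMIs were summed per class, with exact Poisson, Clopper-Pearson or conditional binomial intervals at 95%, which cover counting error only. The floor was 3 UMIs. The class test used edgeR 4.0.16 (glmQLFit, glmQLFTest, filterByExpr, TMM, Benjamini-Hochberg, 0.05) in R 4.3.3 on 4 endothelial and 3 pericyte sums, plates being the replicates, and was tested on simulated data. DESeq2 1.42.0 was an alternative. The 2 classes of a plate share that plate and are paired by it. Over 148 genes their deviations from the class means correlated at 0.10, 0.00 and 0.07 in the 3 plates with both classes. Plates of 1 suspension are technical replicates, so p-values measure the spread between plates.

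Members and lists were chosen with earlier results of these data known. Named were the members, Timp4 and Reck, in each list the genes called and the 2 others with most UMIs, and the 3 genes most like each member with 30 UMIs or more in pericytes. Col1a2, Col3a1, Acta2, Tagln, Myh11, Cnn1, Rgs5 and Adgra2 were named beside them, and Spock2, Ctla2a, Plat and Sdc2 for calls made without the filter. The rest was done in python 3.11.15 (scipy 1.17.1, pandas 2.3.3, numpy 2.4.6), figures in matplotlib 3.10.9.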

Additional observations from a re-analysis of the deposited data

Results flagged for a closer look

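Wells outside the retained cells, which the main comparisons left out, held UMIs of the members above the limit that a count of 0 allows (3 UMIs). The 11 wells over 8000 UMIs held 277 UMIs of Mgp, 200 of Serpine2, 34 of Timp2 and 62 of Timp3. The 3 wells with UMIs of both Cldn5 and Pdgfrb held 80 UMIs of Mgp, 50 of Serpine2, 4 of Timp2 and 11 of Timp3. The 7 wells with neither marker held 7 UMIs of Mgp, all in 1 well of the Gpr124 dEC/dEC PDGFRB-gate plate, and 7 of Serpine2, of which 6 were in that well. The 5 wells with a mitochondrial share of 10% or more held 10 UMIs of Mgp and 7 of Serpine2.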

How the results depend on the processing

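With the class taken from the sorting gate in place of the markers, the pericyte over endothelial log2 ratio was -0.12 for Mgp, 0.27 for Serpine2 and -0.77 for Timp3, since both gates delivered cells of both marker classes. The genotype log2 ratio was then -0.22 for Mgp, -0.63 for Serpine2 and 0.95 for Timp3 in the PDGFRB-gate plates. In the CD31-gate plates it was 4.39 for Mgp, 4.86 for Serpine2 and 1.52 for Timp3. The CD31-gate plate of Gpr124 fl/fl held 6 retained pericytes, whereas all 12 of Gpr124 dEC/dEC came from the PDGFRB-gate plate. These genotype ratios by gate therefore compare different mixes of the marker classes. The whole of each plate was counted under its gate, with the CD31-gate wells of the Gpr124 dEC/dEC PDGFRB-gate plate included. With no upper limit on UMIs the Timp3 log2 ratio in pericytes was 0.76. The other alternatives kept the class ratios of Mgp, Serpine2 and Timp2 above 3-fold, and every member ratio inside its main interval. Leaving out each plate in turn gave class log2 ratios of 4.23 to 4.77 for Mgp, 3.99 to 4.82 for Serpine2 and -0.11 to 1.68 for Timp3, and genotype log2 ratios in pericytes of 1.36 to 2.18 for Timp3 and -1.54 to -0.70 for Timp2. Without the Gpr124 dEC/dEC PDGFRB-gate plate no Gpr124 dEC/dEC pericytes were left, so that setting gave no genotype ratio in pericytes.

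In the class comparison, 36 genes were higher in pericytes and 15 in endothelial cells. Without the filter on low counts (10829 genes) the counts were 188 and 50, among them 8 listed genes (Agrn, F2r, Plat, Lrp1, Sdc2 and Fstl1 higher in pericytes, Spock2 and Ctla2a in endothelial cells). DESeq2 called 9 genes higher in endothelial cells, and leaving out each plate gave 24 to 38 and 8 to 20, the lowest without the Gpr124 dEC/dEC PDGFRB-gate plate. With the plate as a block, which pairs the classes of a plate, 33 and 13 genes were called and Id3 was lost (log2 fold change 0.92), with no other listed gene changed. Id3 was also lost in DESeq2, without the filter and without 3 of the 4 plates in turn. The genotypes had 1 suspension each, so no paired analysis of them was possible. Depth limits the endothelial values most: 3 UMIs over their group are 1.89 to 1.98 per 10000.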
